A study of Xenopus laevis with 54 samples.

Results

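RNA captured on beads was compared with uncaptured RNA in Xenopus laevis embryos at 5 hours post fertilization (hpf), the earliest of the times sampled. The bead group held 4 libraries of RNA that bound to streptavidin after click biotinylation of 5-ethynyl uridine (EU), a label for newly made RNA. The flowthrough group held the 4 libraries of RNA that did not bind. Beside them stand 4 total RNA libraries of 5 hpf embryos and 2 of unfertilized eggs, so that 8 of the 54 libraries enter the comparison. Every embryo was a wildtype blastula, kept at 22 °C ± 0.5 in 0.1× MMR (a dilute salt medium), and all had received 10 nl of 50 mM EU at the single-cell stage, about 0.5 mM in the cell. Eggs received no EU. Replicates 1 and 2 were experiment 1, and replicates 3 and 4, with the eggs, were experiment 2. Each experiment used 2 clutches, per the series' design text. Bead and flowthrough libraries with the same replicate number were compared as a pair, and the 17902 of 50489 genes that reached 10 or more in 4 or more of the 8 libraries were tested.

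A frog egg is loaded with maternal messages, and early cleavage runs on them while most of the embryo's own genome is silent. Transcription begins broadly at the midblastula transition, and a small set of genes, among them nodal ligands and homeobox genes of the endoderm and organizer, starts before it. EU is built into RNA made after the injection, so the capture is meant to enrich zygotic transcripts. Messages laid down in the oocyte carry no label. No embryos without EU put through the same capture are among the labelled groups, so labelled RNA and unlabelled RNA that stuck to the beads cannot be told apart. The levels were scaled library by library, so they compare the make-up of the fractions and not the amount of RNA in them.

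The bead libraries of the 2 experiments stood apart. Values above 0 were listed for 23212, 23232, 18990 and 15751 genes in bead replicates 1 to 4, against 24003 to 25064 genes in flowthrough and 24392 to 25563 in total RNA. Of 11672 abundant genes, with a mean of at least 100 over the flowthrough libraries, 0.026, 0.051, 0.326 and 3.684% were listed at 0 in bead replicates 1 to 4, and at most 0.034% in any flowthrough library. A value of 0 in bead replicate 3 or 4 is therefore given only as listed, and the depth is unknown. In flowthrough and total RNA, replicate 1 was like 3, and 2 like 4. The correlation across genes of the flowthrough libraries was 0.9778 between replicates 1 and 3 and 0.9821 between 2 and 4, against 0.9165 between 1 and 2. The total RNA libraries gave 0.9794 and 0.9762, against 0.917. The same crossing appeared gene by gene, with 35 genes at 50 or more in flowthrough replicates 1 and 3 and at most 5 in 2 and 4, and 51 genes the other way, but 0 and 1 for the pairs within an experiment. The bead libraries differed: their correlation was 0.8472 between 1 and 3 and 0.7761 between 2 and 4, against 0.9016 between 1 and 2. On beads the crossings held 37 and 36 genes, and the pairs within an experiment 74 and 10. The forkhead gene foxh1.S stood at 323, 5, 86 and 0 on beads, at 267, 3, 280 and 3 in flowthrough and at 292, 1, 351 and 8 in total RNA. Whether the clutches of the 2 experiments shared parents is not given in the sources used here, and the p-values treat the 4 pairs as separate samples. The 31 markers of follicle, ovary, liver and blood gave summed values of 58 to 276 on beads and 51 to 201 in flowthrough, with 1 to 3 and 4 to 7 markers above 0. Only amh.S of that list passed the filter, at 259, 54, 237 and 94 on beads and 192, 42, 188 and 43 in flowthrough.

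At 5 hpf the bead levels of most genes lay close to their flowthrough levels in experiment 1 and scattered widely around them in experiment 2. Over the 4 pairs, limma on log2(value + 1) with a term for the pair called 0 genes higher and 0 lower on beads, 0.0% of the 17902 tested, at a Benjamini-Hochberg adjusted p under 0.05 and a change of at least 2-fold. At an unadjusted p under 0.05 there were 1009 of the 17902 genes, 293 higher and 716 lower. That total is near the share that this threshold alone would give with no difference. The smallest adjusted p was 0.142. The split at the unadjusted threshold moved with the scaling. It was 504 higher and 485 lower with each pair's median set to 0. With quantile normalization it was 774 and 853. For the counts given next, the effect of the scaling was not tested. Without a test, 327 genes (1.83%) had all 4 bead libraries above all 4 flowthrough libraries and 826 (4.61%) had them all below. The pairs differed in scatter: the SD across genes of the log2 difference was 0.536, 0.506, 1.44 and 2.30 in pairs 1 to 4, around medians of 0.00, -0.01, -0.27 and -0.51. At least 2-fold higher on beads were 355, 348, 1421 and 2140 genes in pairs 1 to 4, and at least 2-fold lower 644, 625, 4509 and 6941.

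**Figure D1:**
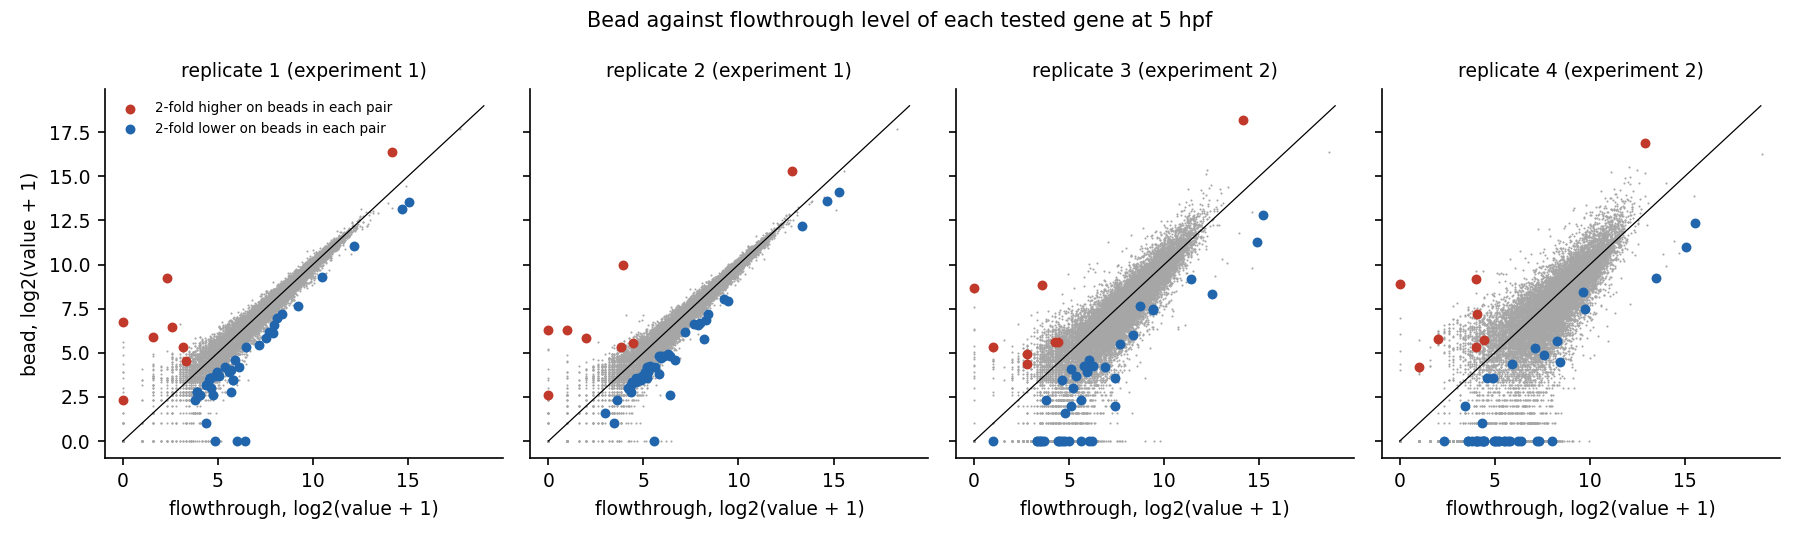
Each of 4 panels plots the bead level of the 17902 tested genes (vertical axis) against their flowthrough level (horizontal axis), both as log2(value + 1), in 1 replicate pair, with the line of equal levels. Red points are the 8 genes at least 2-fold higher on beads in each of the 4 pairs and blue points the 40 at least 2-fold lower; the cloud is narrow in pairs 1 and 2 and wide in pairs 3 and 4, where many genes lie at 0 on beads.

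Taken apart, the experiments gave very different counts. The mean of their differences tested with the spread of all 5 times, also chosen after seeing the data, called 87 genes higher (0.486%) and 233 lower (1.3%). That spread takes the 5 times of a replicate number as separate pairs, so its p-values may be too small. With the spread of both experiments pooled in 1 fit, experiment 1 called 1 gene higher (0.00559% of those tested) and 0 lower, with 292 genes at an unadjusted p under 0.05. Experiment 2 called 634 higher (3.54%) and 1863 lower (10.4%). Its split followed the scaling: with quantile normalization it was 1167 higher and 1267 lower, and with each pair's median set to 0 it was 1280 and 1083. The counts also moved when a pair was left out, but the spread then came from the other experiment alone. How far the counts depend on single pairs was therefore not tested. The median over genes of the SD between the 2 pair differences was 0.166 in experiment 1 and 0.555 in experiment 2, so the pooled spread is too wide for the first and too narrow for the second. Fitted alone with its own spread, an alternative chosen after seeing the data, experiment 1 called 9 genes higher (0.0503%) and 69 lower (0.385%), and experiment 2 called 621 (3.47%) and 1451 (8.11%). These fits rest on 2 pairs each, and on simulated data experiment 2 fitted alone made more false calls than experiment 1. Of the genes called alone in each experiment, 3 were higher in both, which is 33.3% of the list of experiment 1 and 0.483% of that of experiment 2. A further 15 were lower in both, 21.7% and 1.03% of the lists. Of the 9 higher genes of experiment 1, 2 were called lower in experiment 2, and of its 69 lower genes 0 were called higher there.

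Only 8 of the 17902 genes (0.0447%) were at least 2-fold higher on beads in each of the 4 pairs, and none of them has a proper gene symbol. They are described because of that consistency, chosen after their values were seen, and their differences are given as a description. LOC108719063, listed as a long noncoding RNA by RefSeq (Xenopus_laevis_v10.1), was at 593, 1000, 460 and 571 on beads and at 4, 14, 11 and 15 in flowthrough. Total RNA held 232, 311, 345 and 403, and both egg libraries were at 0. All bead libraries thus lay above all total RNA libraries and those above all flowthrough libraries. Its mean difference was 5.84 ± 0.44 on the log2 scale (SE, n = 4 pairs), with a limma adjusted p of 0.142. That p was 0.0285 without the pairing and 0.0195 with a pseudocount of 10, so the call of this gene depended on the model, while the difference lay between 4.96 and 6.78 over the alternatives run. Fitted alone, it was called in experiment 1 (limma adjusted p = 4.26e-12) and in experiment 2 (adjusted p = 0.000174).

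Xelaev18003910m, a gene with no entry in the RefSeq table, stood at 107, 76, 40 and 17 on beads and at 0, 0, 1 and 1 in flowthrough. Total RNA gave 21, 14, 27 and 13, and eggs 0 and 0. Its bead levels were higher in experiment 1 than in experiment 2. Xelaev18031473m had 89, 76, 405 and 473 on beads and 5, 1, 0 and 0 in flowthrough, with 15, 4, 9 and 1 in total RNA and 0 and 0 in eggs. Here the bead levels of experiment 2 were the higher ones. LOC108714186 had 58, 56, 20 and 55 on beads, against 2, 3, 6 and 3 in flowthrough, 20, 19, 20 and 12 in total RNA and 2 and 3 in eggs. The groups of bead and flowthrough libraries did not overlap for any of these genes, against 1.83% of all tested genes with every bead library above. The choice by a 2-fold difference in each pair makes this likely, so it is no separate result.

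Xelaev18003734m differed from the others in being abundant everywhere. It was at 84710, 40933, 294380 and 121155 on beads and at 18061, 7090, 18064 and 7636 in flowthrough, with 25087, 10195, 23163 and 12403 in total RNA and 26781 and 24250 in eggs. Replicate 1 exceeded 2 and replicate 3 exceeded 4 in each fraction, and the difference within pairs was 2.23, 2.53, 4.03 and 3.99 on the log2 scale. It was the 1 gene called higher in experiment 1 with the pooled spread (limma adjusted p = 0.0495). The other 3 genes were low. LOC108695498 had 22, 40, 30 and 39 on beads and 9, 13, 6 and 15 in flowthrough, and 14 and 18 in eggs. LOC108713260 had 39, 46, 48 and 53 on beads and 8, 21, 18 and 21 in flowthrough. Xelaev18044269m had 4, 5, 48 and 148 on beads and 0, 0, 20 and 16 in flowthrough, and was listed at 0 in every total RNA and egg library. The nearest gene outside the rule was med27.L, a subunit of the Mediator complex, at 360, 396, 477 and 391 on beads and 182, 173, 215 and 198 in flowthrough. Its smallest pair difference was 0.98, just under the 1.0 that stands for 2-fold, and the smallest inside belonged to LOC108713260.

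**Figure D2:**
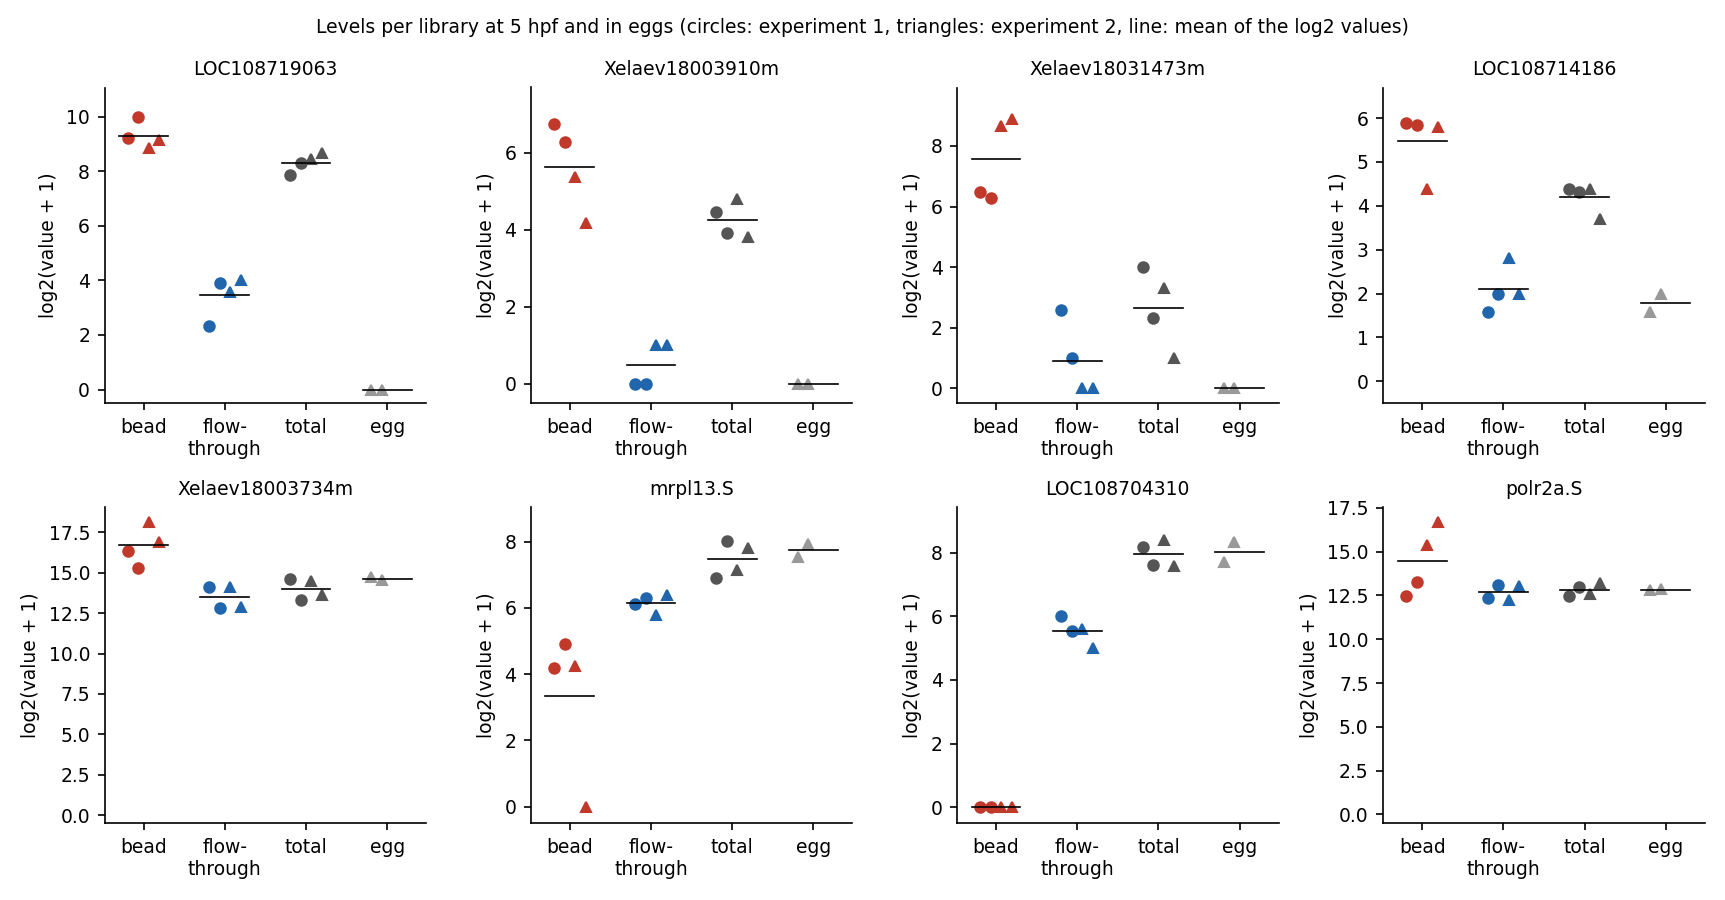
Levels as log2(value + 1) of 8 genes (1 panel each) in bead, flowthrough and total RNA libraries of 5 hpf and in eggs, each point 1 library, circles experiment 1, triangles experiment 2, lines the mean of the log2 values. The first 5 genes have every bead library above every flowthrough library, mrpl13.S and LOC108704310 every bead library below, and polr2a.S a gap in the libraries of experiment 2 alone.

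At the later times 5 of these 8 genes were still at least 2-fold higher on beads in each of the 4 pairs at 6, 7, 8 and 9 hpf, 62.5% at each time, against 0.101, 0.519, 1.04 and 1.64% of all tested genes. They were LOC108719063, Xelaev18003910m, Xelaev18031473m, LOC108714186 and Xelaev18003734m. LOC108719063 reached 2010, 5228, 1473 and 6857 on beads at 6 hpf, against 9, 38, 15 and 42 in flowthrough. Its bead level was highest at 7 hpf, at 18833, 18040, 6070 and 24160, and lower at 9 hpf, at 5976, 6559, 3010 and 9605. Xelaev18003910m followed with 818, 736, 269 and 247 on beads at 6 hpf and 5167, 5622, 1397 and 3758 at 9 hpf. Xelaev18031473m climbed at each time and stood at 10930, 13404, 54215 and 270987 on beads at 9 hpf, against 72, 166, 97 and 70 in flowthrough. Xelaev18003734m had a lower bead level at 9 hpf than at 5 hpf in each replicate, with means of 135300 at 5 hpf and 96120 at 9 hpf. LOC108695498 was at 16, 17, 0 and 0 on beads at 6 hpf, against 10, 6, 15 and 13 in flowthrough, and LOC108713260 at 20, 25, 0 and 0, against 18, 37, 34 and 18.

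**Figure D3:**
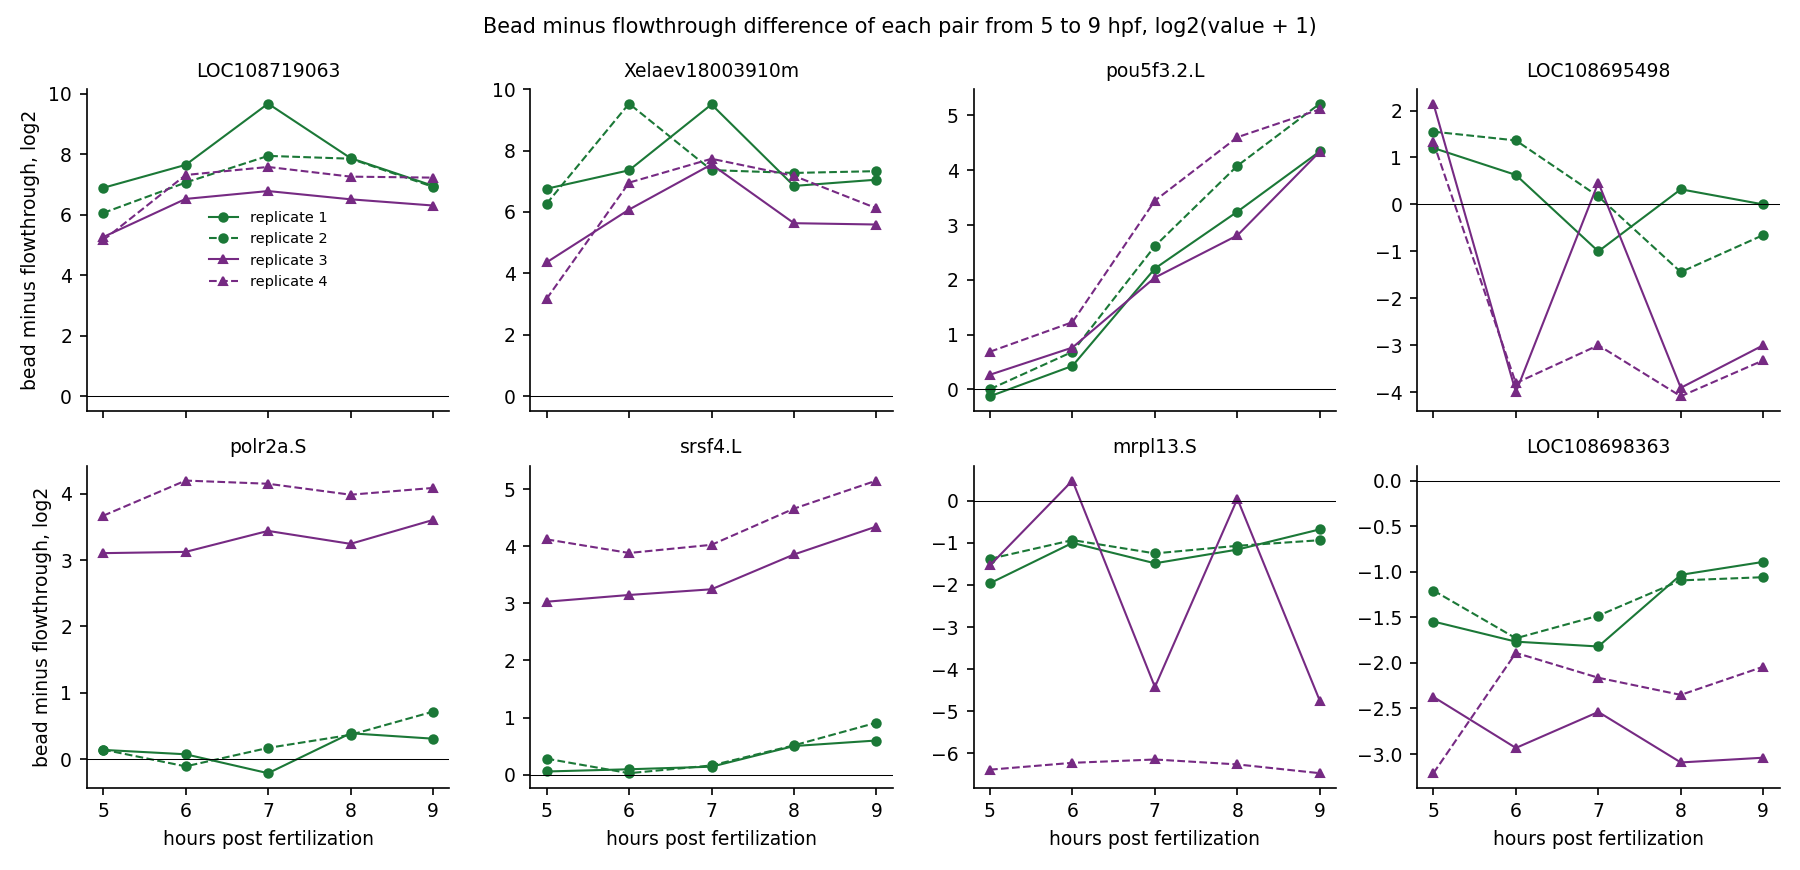
Bead minus flowthrough difference on the log2(value + 1) scale (vertical axis) against hours post fertilization (horizontal axis) for 8 genes, 1 line for each replicate pair, green circles for experiment 1 and purple triangles for experiment 2. LOC108719063 and Xelaev18003910m lie above 0 in every pair from 5 hpf on, pou5f3.2.L starts near 0 and rises in all pairs, LOC108695498 leaves its 5 hpf difference, polr2a.S and srsf4.L keep the experiments apart, LOC108698363 stays below 0, and mrpl13.S lies below 0 apart from replicate 3 at 6 and 8 hpf.

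Genes of the first zygotic wave were present on beads at 5 hpf at very low levels. The list of such genes has 72 members in the table, 12 of them passed the filter on low values, and 0 were called. In experiment 1, 19 of the 72 were above 0 in both bead libraries and at 0 in both flowthrough libraries, and 0 showed the reverse. Over all genes of the table, 205 were found on beads in that way and 573 in flowthrough. Of the 19, 15 were at 0 in both eggs and 15 at 0 in all 4 flowthrough libraries, and their highest bead value was 34. The list was chosen with knowledge of when these genes switch on and with earlier results of these data known. Neither its values on beads at 5 hpf nor its later rise is therefore a separate result. In experiment 2, 6 of the 19 were above 0 in bead replicate 3 and 1 in bead replicate 4. A further 17 members were at 0 in all 8 libraries.

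Among the homeobox genes of the Mix and Bix family, which act in mesoderm and endoderm, bix1.1.L was at 25, 12, 18 and 0 on beads and at 0 in the 4 flowthrough libraries. Bix1.2.L was at 19, 5, 0 and 0, and mix1.L at 4, 12, 34 and 0 with a single flowthrough value of 1. Of the nodal ligands, signals that induce mesendoderm, nodal5.2.L was at 10, 21, 0 and 0 on beads and nodal3.2.L at 15, 8, 4 and 0, both at 0 in all flowthrough and egg libraries. These genes were seen in both bead libraries of experiment 1 and unevenly in experiment 2. Siamois genes, organizer homeobox factors downstream of maternal Wnt signalling, were lower still, with 2, 4, 0 and 0 on beads for both sia1.L and sia2.S. The ventral homeobox gene ventx2.1.S gave 19, 5, 0 and 0 on beads, and the endoderm factor sox17a.L 10, 3, 0 and 0. Its relative ventx2.2.S, at 40, 9, 0 and 0 on beads, had a flowthrough value of 1 in replicate 2 and is not among the 19. In total RNA, the same 19 genes ranged from 0 to 11. By 9 hpf 14 of the 19 were at least 4-fold higher on beads in each pair, with mean bead levels of 6877 ± 1340 for mix1.L and 5002 ± 648 for bix1.2.L (SD, n = 4), and by 6 hpf 8 of them were.

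**Figure D4:**
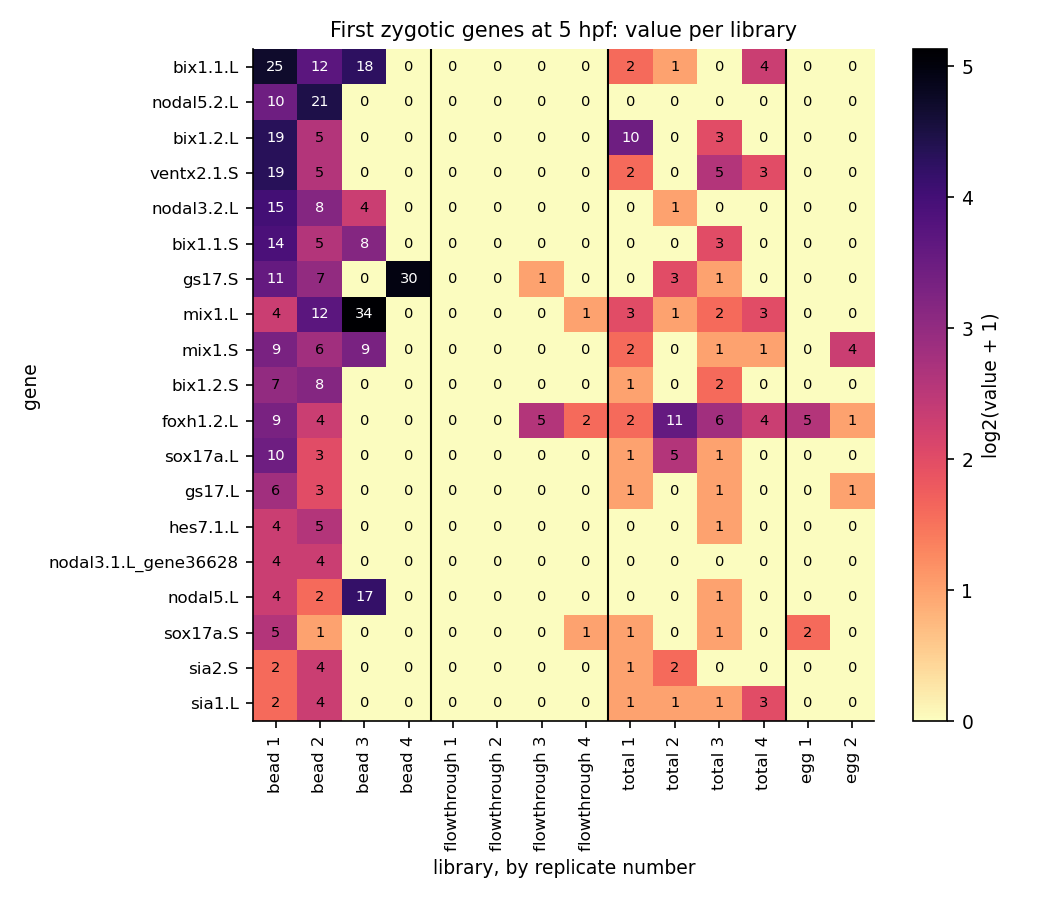
Value per library (number in each cell, colour as log2(value + 1)) of the 19 first zygotic genes that were above 0 in both bead libraries and at 0 in both flowthrough libraries of experiment 1, with bead, flowthrough, total RNA and egg libraries from left to right. Values sit in bead 1 and 2, in bead 3 for 6 genes and in bead 4 for 1, the largest being 34.

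A search of the whole table without the list used genes at 5 or more in both bead libraries of experiment 1 and at 1 or less in both flowthrough libraries. It found 37 genes (0.0733% of 50489), and the mirror-image search for flowthrough also found 37 (0.0733%). The counts were equal, but the genes differed in later behaviour. Of the bead-side genes, 15 (40.5%) were at least 4-fold higher on beads in every pair at 9 hpf, 10 (27.0%) were on the first zygotic list, and 18 (48.6%) were at 0 in both eggs. All of those 10 but nodal5.2.L were among the 15, and the later rise of list members is no separate result. Outside the list, the 15 held rasl11b.L, sbk1l.L, LOC108695555, LOC108718446, Xelaev18003910m and Xelaev18042953m. Of the flowthrough-side genes these numbers were 1 (2.7%), 0 (0.0%) and 4 (10.8%). Of all 50489 genes, 1.53% were 4-fold higher at 9 hpf and 45.7% at 0 in both eggs. The table holds many genes listed at 0 at 5 hpf as well, and of the 17902 tested genes 53 were at 0 in eggs. The search itself asked for low flowthrough on the bead side and for higher flowthrough on the other. Nothing is therefore read from the egg shares. Outside the list the bead-side genes included LOC108703460, at 12, 15, 12 and 0 on beads and at 0 in all flowthrough and egg libraries, and rasd1.L, a Ras-related GTPase gene, at 5, 5, 18 and 0. The highest bead-side values belonged to LOC108718405, at 269, 155, 0 and 83 on beads, 0 in every flowthrough library and 219, 116, 0 and 0 in total RNA.

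Of the 12 tested members of the first zygotic list 11 were above 0 in eggs. Their median difference in experiment 1 was 0.03, with single members on either side, such as fzd7.S at 43 and 31 on beads, against 26 and 11 in flowthrough. Pou5f3.3.L, a maternal pluripotency factor of the Oct4 family, was at 2860, 2749, 4378 and 2057 on beads and at 3501, 3437, 3066 and 3115 in flowthrough, a difference of -0.17 ± 0.21 on the log2 scale (SE, n = 4 pairs). Foxh1.L, which carries nodal signals with Smad proteins, was at 3180, 3062, 1778 and 2126 on beads and at 2911, 2863, 3172 and 3202 in flowthrough. Fzd7.L, a Wnt receptor, was at 1031, 795, 227 and 272 on beads and at 814, 695, 891 and 759 in flowthrough. Fzd7.L and pou5f3.3.S were the 2 of 12 called lower in experiment 2, 16.7% against 10.4% of all tested genes. Pou5f3.2.L, also present in eggs and later transcribed by the embryo, was at 724, 444, 857 and 663 on beads and at 789, 442, 711 and 411 in flowthrough. Its pair differences were -0.12, 0.01, 0.27 and 0.69 at 5 hpf, 0.43, 0.69, 0.77 and 1.23 at 6 hpf, and 4.34, 5.21, 4.34 and 5.11 at 9 hpf. Pair by pair, the 6 hpf difference exceeded that of 5 hpf by 0.55, 0.68, 0.50 and 0.54, and the 9 hpf values lay above both.

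On the low side, 40 genes (0.223% of those tested) were at least 2-fold lower on beads in each of the 4 pairs. That is 5 times the number on the high side. The median differences over all tested genes were -0.27 and -0.51 in pairs 3 and 4. How far the excess of lower genes depends on the scaling was not tested. The 40 genes too were chosen after their values were seen. Of these, 39 were above 0 in eggs (97.5%, against 99.7% of all tested genes), 16 have a proper gene symbol (40%, against 83.2%), and 14 had 0 in bead replicates 3 and 4 alike (35.0%, against 3.37% of all tested genes). The last share is raised by the choice itself, as 0 on beads meets the rule in any pair with flowthrough above 0.

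Mrpl13.S, of the large mitochondrial ribosomal subunit, was at 17, 29, 18 and 0 on beads and at 69, 77, 54 and 83 in flowthrough, with 119, 260, 141 and 223 in total RNA. Uqcr10.S, a subunit of respiratory complex III, was at 5, 17, 0 and 0 on beads and at 26, 36, 27 and 46 in flowthrough. Tonsl.S, a replication-fork repair factor, was at 1, 10, 0 and 0 on beads and at 20, 24, 10 and 15 in flowthrough. Bead libraries lay below every flowthrough library for these genes, apart from a tie at 10 for tonsl.S, against 4.61% of all tested genes. The choice by a 2-fold difference in each pair makes this likely too.

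Very abundant unnamed transcripts made up another part of the 40. LOC108698363 was at 11848, 17585, 7273 and 5173 on beads and at 34596, 40576, 37687 and 47862 in flowthrough, with 56284 to 85159 in total RNA. LOC108698366 was at 8968, 12232, 2530 and 2069 on beads and at 26179, 26255, 29879 and 33650 in flowthrough, with 56070 to 83575 in total RNA. LOC108705162, a protein-coding gene per RefSeq, was at 2107, 4649, 326 and 612 on beads and at 4634, 10331, 5776 and 11334 in flowthrough. LOC108704310 was listed at 0 in all 4 bead libraries, at 64, 46, 48 and 31 in flowthrough, at 290, 193, 337 and 192 in total RNA and at 208 and 319 in eggs. At 6 hpf it was back at 51, 52, 0 and 0 on beads, against 95, 52, 79 and 30 in flowthrough. Just outside the rule stood LOC108698365, a long noncoding RNA per RefSeq, and rpl13.L, whose pair differences nearest 0 were -0.99 for each, while cst3.L lay on the 2-fold line and was counted.

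At the later times the experiments differed for the low side too. Of the 40 genes, 6, 7, 6 and 5 were still at least 2-fold lower in all 4 pairs at 6, 7, 8 and 9 hpf (12.5 to 17.5%, against 0.229, 0.369, 0.341 and 0.609% of all tested genes). In experiment 1 the median difference of the 40 was -1.37 at 5 hpf, by choice, and -0.75, -0.82, -0.24 and -0.45 at 6, 7, 8 and 9 hpf. In experiment 2, 57.5, 67.5, 65.0 and 75.0% of the 40 were at least 2-fold lower in both pairs at those times, against 19.2, 19.3, 25.9 and 35.0% of all tested genes. LOC108698363 stayed at or below -0.89 on the log2 scale in every pair at every time. Mrpl13.S was at 23 and 65 on beads in experiment 1 at 6 hpf, against 47 and 125 in flowthrough, and bead replicate 4 was listed at 0 there.

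Of the 69 lower genes of experiment 1 fitted alone, 68 were above 0 in eggs (98.6%, near the 99.7% of all tested genes), and 56 were below 0 in experiment 2 (81.2%, against 68.4% of all tested genes). Snrpd3.L, a core Sm protein of the spliceosome, was at 721 and 882 on beads, against 1644 and 1689 in flowthrough (-1.06 ± 0.08, SE, limma adjusted p = 1.05e-07). In experiment 2 the same gene was at 1139 and 1134 on beads, against 1659 and 1532. Mrpl12.L was at 188, 161, 106 and 0 on beads and at 361, 363, 275 and 310 in flowthrough, called in both experiments alone. Rpl13.L, of the large ribosomal subunit, was at 61, 69, 0 and 0 on beads and at 122, 142, 115 and 113 in flowthrough. Uqcrh.S of complex III was called lower in experiment 1 alone (limma adjusted p = 0.0127) and was at 6, 8, 33 and 15 on beads and 46, 35, 21 and 39 in flowthrough. On the high side of experiment 1, pqlc2.S, a lysosomal amino acid transporter gene, was at 99, 138, 179 and 133 on beads and at 7, 30, 123 and 98 in flowthrough. Paaf1.S, a proteasome-associated factor, was at 70 and 62 on beads in experiment 1 and at 0 in bead replicates 3 and 4, against 30, 22, 34 and 27 in flowthrough.

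Messages for the ribosome and the respiratory chain had lower medians on beads than the tested genes as a whole, in both experiments. Of 149 cytosolic ribosomal protein genes, 140 were tested. Their median difference was -0.35 in experiment 1 and -1.20 in experiment 2, against -0.01 and -0.50 for all tested genes. In experiment 1, 112 of the 140 (80.0%) lay below 0, against 51.5% of all tested genes. That experiment alone called 0 higher and 5 lower (3.57%, against 0.385% of all tested genes), among them rpl13.L, rpl34.L and rps15.S. Experiment 2 called 1 higher and 33 lower (23.6%, against 10.4%), or 1 and 15 (10.7%, against 8.11%) with its own spread. Rps3.L was the exception, at 782 and 1164 on beads in experiment 2, against 281 and 335 in flowthrough. Total RNA minus flowthrough, which shares the flowthrough libraries, had a median of 0.81 in this list and 0.05 over all tested genes.

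The 94 tested of 110 mitochondrial ribosomal protein genes had medians of -0.16 in experiment 1 and -1.33 in experiment 2, with 67.0% below 0 in experiment 1. Alone, experiment 1 called 4 lower (4.26%, against 0.385% of all tested genes), and experiment 2 called 1 higher and 9 lower (9.57%, near the 8.11% of all tested genes). Nuclear genes of the respiratory chain, 140 tested of 154, had medians of -0.19 and -0.96, with 70.7% below 0, 5 called lower in experiment 1 alone (3.57%) and 1 higher and 13 lower in experiment 2 alone (9.29%, also near all tested genes). Bead replicate 4 listed 28.7% of the tested mitochondrial ribosomal genes, 27.9% of the respiratory genes and 15.7% of the cytosolic ribosomal genes at 0, against 17.8% of all tested genes. The part of such zeros in the medians of experiment 2 was not tested. In experiment 1 bead replicates 1 and 2 listed 0.626 and 0.693% of all tested genes at 0.

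**Figure D5:**
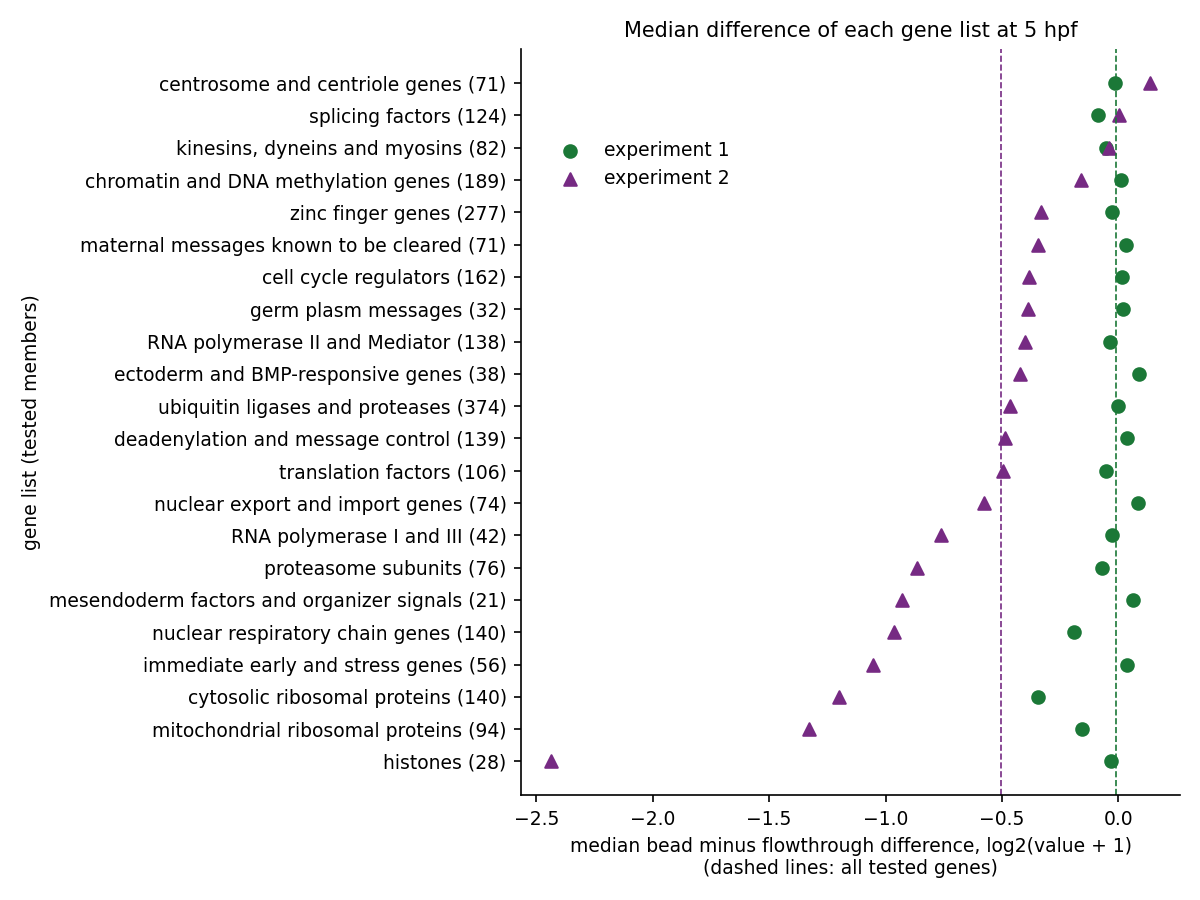
Median bead minus flowthrough difference on the log2(value + 1) scale (horizontal axis) of each gene list with at least 20 tested members (vertical axis, tested members in brackets), green circles for experiment 1 and purple triangles for experiment 2, with dashed lines at the medians of all tested genes, -0.01 and -0.50. In experiment 1 the lists stand close to 0 apart from ribosomal and respiratory genes; in experiment 2 the lists shown spread from -2.44 for histones to 0.14 for centrosome genes.

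Histone genes had a median near equality in experiment 1 and a low one on beads in experiment 2. The 28 tested of 30 had medians of -0.03 and -2.44, with 12 called lower in experiment 2 (42.9%, against 10.4%) and 2 higher. In experiment 1, 16 of the 28 (57.1%) lay below 0, against 51.5% of all tested genes. Single members lay away from the median there: h2ax.lS was at 9456 and 14496 on beads, against 18519 and 23469 in flowthrough. H2bc11.S, a histone H2B gene, was at 22820, 40296, 8229 and 15228 on beads and at 31099, 47448, 25522 and 46573 in flowthrough. H3c14.L, a histone H3 gene, was at 7713, 11773, 1068 and 978 on beads and at 11075, 14585, 10263 and 16391 in flowthrough. The 2 higher ones were h3-5.L and h3-5.S, also of histone H3, at 1426 and 833 and at 896 and 935 on beads in experiment 2, against 310 and 280 and 351 and 293 in flowthrough.

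Centrosome and splicing genes held more higher calls in experiment 2 than the tested genes as a whole. So did other lists, among them germ plasm messages (12.5%) and kinesins, dyneins and myosins (8.54%). Of 71 tested centrosome and centriole genes 10 were called higher (14.1%, against 3.54%) and 0 lower in experiment 2, around a median of 0.14, while experiment 1 had a median of -0.02 and 0 called. Cep250.S, a centrosome linker protein, was at 340, 370, 1371 and 1764 on beads and at 444, 371, 399 and 367 in flowthrough. Of 124 splicing factors 16 were called higher (12.9%) and 11 lower (8.87%). Srsf4.L, an SR protein, was at 2651, 2899, 19635 and 38653 on beads and at 2552, 2388, 2403 and 2217 in flowthrough, whereas srsf2.L of the same family was at 573, 479, 94 and 141 on beads and at 394, 459, 496 and 544 in flowthrough. RNA polymerase II and Mediator genes, 138 tested, gave 12 higher and 12 lower in experiment 2 (8.7% each way). The largest-subunit genes were the extreme: polr2a.S was at 5701, 9766, 42132 and 106506 on beads and at 5169, 8829, 4898 and 8385 in flowthrough, and polr2a.L at 5662, 4807, 35539 and 47553 on beads and at 5386, 4399, 4765 and 4287 in flowthrough.

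Other lists had 0 calls in experiment 1 with the pooled spread, and in experiment 2 most of their calls were lower, as they were over all tested genes (3.54% higher and 10.4% lower), a split that moved with the scaling. Immediate early and stress genes, 56 tested, gave 0 higher and 10 lower (17.9%), for example ier5.S at 434, 450, 82 and 79 on beads and at 342, 435, 693 and 500 in flowthrough. Nuclear export and import genes, 74 tested, gave 0 higher and 15 lower (20.3%), for example kpna2.S, an importin, at 1261, 1108, 599 and 483 on beads and at 1317, 1198, 1422 and 1292 in flowthrough. Proteasome genes, 76 tested, gave 1 and 13 (17.1%). Maternal messages known to be cleared, 71 tested, gave 2 and 13 (18.3%) around medians of 0.03 in experiment 1 and -0.35 in experiment 2. The mitotic kinase aurka.L of that list was at 1358, 1098, 201 and 272 on beads and at 1038, 1122, 1049 and 1108 in flowthrough. Of the translation factors, 106 tested, 6 were higher and 11 lower (10.4%, the share of all tested genes), and eif5b.L, an initiation factor, was at 1767, 1846, 8265 and 10222 on beads and at 1972, 1885, 1988 and 1788 in flowthrough.

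Germ plasm messages gave 4 higher and 2 lower of 32 tested in experiment 2, cell cycle regulators 7 and 14 of 162, kinesins, dyneins and myosins 7 and 5 of 82, and chromatin and DNA methylation genes 7 and 17 of 189. Deadenylation and message control gave 7 and 19 of 139, ubiquitin ligases and proteases 9 and 32 of 374, zinc finger genes 11 and 17 of 277, and RNA polymerase I and III genes 2 and 4 of 42. The lower shares of these lists ran from 6.1 to 13.7% and the higher ones from 2.41 to 12.5%, around 10.4 and 3.54% of all tested genes, and nothing particular to a list is read from them. Of the factors of the later germ layers, 21 of 109 mesendoderm genes and 38 of 77 ectoderm genes were tested, beside 17902 of 50489 in the table. Each list had 0 higher and 2 lower in experiment 2 (9.52 and 5.26% lower, against 10.4% of all tested genes). Vegt.L, the maternal endoderm determinant, was at 1697, 1511, 767 and 477 on beads and at 1672, 1773, 1670 and 1756 in flowthrough. The 2 tested small structured RNA genes of 12 were also low in experiment 2. Rn7sk, the 7SK RNA that restrains transcription elongation, was at 103, 64, 24 and 7 on beads and at 79, 52, 282 and 213 in flowthrough, and terc.S, the telomerase RNA, at 19, 24, 0 and 0 on beads and at 49, 37, 35 and 40 in flowthrough. Of 47 late differentiation markers 2 were tested, and 3 to 6 were above 0 on beads, against 6 to 7 in flowthrough. Of 788 genes named as transfer RNA genes only trnau1ap.S, a protein gene, was tested, and no mitochondrially encoded gene matched the table.

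The difference between the experiments was tested directly. Experiment 2 minus experiment 1 called 0 genes higher (0.0%) and 1 lower (0.00559%) in the fit of the 4 pairs, with 4452 genes at an unadjusted p under 0.05. That gene was LOC108705162 (limma adjusted p = 0.0461), whose pair differences were near -1.14 in experiment 1 and -4.18 in experiment 2. These counts also moved when a pair was left out, where the spread came from the other experiment alone. With the spread taken from the bead and flowthrough libraries of all 5 times the contrast called 332 higher (1.85%) and 260 lower (1.45%). That spread takes the times of a replicate number as separate pairs, though differences of a pair recurred over the times. Its p-values may therefore be too small. Under that spread polr2a.S was higher by 3.24 on the log2 scale (adjusted p = 0.000299, against 0.051 from the 4 pairs), and srsf4.L had an adjusted p of 0.000449. Thoc6.L, a subunit of the THO complex in messenger RNA export, was at 388, 455, 4292 and 8647 on beads and at 454, 479, 473 and 550 in flowthrough. On the low side, trim7.L was at 330, 448, 21 and 0 on beads and at 414, 500, 430 and 527 in flowthrough, and tesk1.L, a kinase gene, at 164, 89, 0 and 0 on beads and at 121, 109, 103 and 110 in flowthrough. For each of these genes flowthrough was alike in both experiments and the beads were not.

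The genes called at 5 hpf in experiment 2 were followed to the later times in both experiments, with larger shares in experiment 2 than in experiment 1. Of the 634 higher genes, 371, 393, 457 and 450 were at least 2-fold higher in both pairs of experiment 2 at 6, 7, 8 and 9 hpf (58.5, 62.0, 72.1 and 71.0%, against 4.01, 4.54, 5.94 and 7.26% of all tested genes). In both pairs of experiment 1 they numbered 7, 15, 35 and 48 (1.1, 2.37, 5.52 and 7.57%, against 0.419, 1.31, 2.36 and 4.2%). Of the 1863 lower genes, 838, 830, 981 and 1050 were at least 2-fold lower in both pairs of experiment 2 (45.0, 44.6, 52.7 and 56.4%, against 19.2, 19.3, 25.9 and 35.0%), and 20, 25, 26 and 35 in both pairs of experiment 1 (1.07, 1.34, 1.4 and 1.88%, against 0.458, 0.659, 0.519 and 0.916%). At 5 hpf, 534 of the 1863 (28.7%, against 3.37% of all tested genes) had 0 in bead replicate 3 as well as 4. That share is raised by the choice, as these genes were called for low bead values in those replicates. Polr2a.S at 9 hpf was at 8310, 15005, 76670 and 161880 on beads and at 6701, 9131, 6303 and 9528 in flowthrough. Fewer genes above 0, the experiment and the outcome move together here, and their parts cannot be told apart.

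The differences at 6 and 9 hpf were also tested against those at 5 hpf, in a fit that did not match replicate numbers across times. Differences between pairs that lasted over the times thus counted as spread, so a lack of calls is not read as a lack of change. The contrast of 6 hpf minus 5 hpf called 0 genes in either direction (0.0%) of 19378 tested over the 40 libraries of all times, with 116 at an unadjusted p under 0.05, and 6 higher without the pairing. Values without a call went both ways. Of the 116, 89 were higher at 6 hpf and 27 lower. They were 232 and 279 with terms for each experiment, a choice made after seeing the data. The difference was larger at 6 hpf in all 4 pairs for LOC108719063, by 0.76, 1.01, 1.26 and 2.16, and for LOC108714186, by 1.56, 2.66, 4.01 and 1.15. The same held for Xelaev18003910m, Xelaev18031473m and Xelaev18003734m. The difference was smaller in all 4 pairs for LOC108695498, LOC108713260 and Xelaev18044269m, also 2-fold higher on beads at 5 hpf. The contrast of 9 hpf minus 5 hpf called 627 genes higher (3.24%) and 1 lower (0.00516%), or 355 higher without replicate 1 and 327 without replicate 2. With terms for each experiment, chosen after seeing the data, it called 910 higher and 486 lower, so the scarcity of lower genes depends on that choice. Foxa4.L, a forkhead gene of the organizer, was called with a mean of 1707 on beads at 9 hpf and was listed at 0 on beads at 5 hpf. The difference of mix1.L was larger at 9 hpf by 4.70 ± 1.14 on the log2 scale (SE, limma adjusted p = 0.0189) and that of foxh1.2.L by 5.91 ± 1.21 (adjusted p = 0.0044). Of the genes already high on beads at 5 hpf, LOC108719063 changed by 1.01 ± 0.56 (limma adjusted p = 0.571). Xelaev18003734m changed by 0.54 ± 0.63 (adjusted p = 0.828), and neither passed the test. These genes were chosen for their 5 hpf differences, and no test compared their gains with those of other genes.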

How the data were processed

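Ribosomal RNA-depleted libraries of 8 bead and flowthrough samples of 5 hpf embryos were compared, beside 4 total RNA and 2 egg libraries. The values the authors deposited are a score, whole numbers after DESeq2 normalization and rounding, and Salmon 0.12.0 and DESeq2 are named in the submitters' processing notes. Neither a genome build nor an annotation is given in the sources used here. Because the values are not counts, the count test planned for counts gave way to the one planned for normalized values: limma-trend, robust (limma 3.58.1, statmod 1.5.0, R 4.3.3), on log2(value + 1), which understates changes of low genes. Rounded normalized values hide the read depth, so intervals for counting error are left out. Genes at 10 or more in at least 4 of the 8 libraries were tested, with the replicate number as a pair. The pairing was planned because each pair is a single clutch's RNA split into captured and uncaptured fractions, per the series' design text. Bead and flowthrough deviations of the same number correlated at 0.355, 0.403, 0.373 and 0.216 across genes. Replicate 1 with 3, 2 with 4, 3 with 1 and 4 with 2 gave 0.315, 0.381, 0.322 and 0.203, so these values mostly reflect the likeness of 1 with 3 and of 2 with 4. Called means a Benjamini-Hochberg adjusted p under 0.05 over all tested genes and a change of at least 2-fold. Per-experiment estimates come from a fit with a term for experiment. Fits over all times took each pair at each time as a separate block, with replicate numbers not matched across times. The rule for named genes took called genes with a difference of 2-fold in each pair and a mean of at least 50, per list the 3 called members of smallest adjusted p and 2 uncalled ones, genes called for the difference of the experiments, and any tested first zygotic or small structured RNA gene. As 0 genes were called over the 4 pairs, genes at 2-fold in each pair were described instead. These, the genes called in experiment 1 alone, the genes below the filter, foxh1.S, thoc6.L, trim7.L and tesk1.L were chosen after their values were seen. Members and gene lists were chosen with earlier results of these data known. Results for some genes are not reported here. Near-identical L and S copies may share reads. The fit of the 4 pairs and that of each experiment alone were tested on simulated data. Experiment 2 alone made more false calls there than the others, and no limit on false calls was set for it. Of the table's columns, 1 names no library and was not used. Gene types come from RefSeq (Xenopus_laevis_v10.1), where 32082 of 50489 gene names matched. Alternatives were the pairing, pseudocounts of 10 and 0.5, the filter, the scaling, the spread and leaving out each pair. Python 3.11.15, numpy 2.4.6, pandas 2.3.3 and matplotlib 3.10.9 were used.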

Additional observations from a re-analysis of the deposited data

Results flagged for a closer look

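Of 150 groups of 4 libraries looked at, 4 had a library far from the other 3 by Dixon's criterion, where chance gives about 1 in 20. Mrpl13.S was at 0 in bead replicate 4, against 17, 29 and 18 in the other bead libraries. In flowthrough, hspa1l.S stood apart at 1801 in replicate 4, atp5f1b.S at 990 in replicate 3 and tnrc6a.S at 3432 in replicate 3.

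The difference between bead and flowthrough was larger at 9 hpf than at 5 hpf, by limma's test of that contrast, for members of the lists that passed the filter of 5 hpf. On the log2 scale it grew by 1.99 for ybx1.S, 6.39 for ventx1.1.L, 6.37 for bix1.3.L, 6.28 for fzd7.S, 5.19 for pou5f3.1.L, 4.54 for pou5f3.2.L and 5.48 for pou5f3.2.S.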

How the results depend on the processing

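Over the 4 pairs, 0 higher genes became 1 without the replicate block, with a pseudocount of 10, with no filter, with quantile normalization and with pair medians set to 0, 4 with the spread of all 5 times, and, chosen after seeing the data, 18 from the mean of the experiments' differences and 87 from that with the spread of all times. The 0 lower genes became 2, 23 and 233 under these last 3. Experiment 1 gave 1 higher and 0 lower gene: 2 higher with a pseudocount of 10, 0 with a mean of at least 100, with pair medians set to 0 and without the replicate block, 4 higher and 1 lower with the spread of all times, 1 lower with quantile normalization, 9 and 69 alone, and 0 to 11 and 0 to 68 with a replicate left out. Experiment 2 gave 634 and 1863: 1167 higher with quantile normalization, 1280 and 1083 with pair medians set to 0, and 298 to 2000 and 124 to 6735 with a replicate left out. The difference of the experiments, 0 higher and 1 lower, was the least settled: 344 and 237 with a pseudocount of 10, 266 and 122 with no filter, 421 and 325 with a mean of at least 100, 447 and 443 with quantile normalization, 332 and 260 with the spread of all times, 310 and 347 without the replicate block, 0 lower with pair medians set to 0, and 0 to 2035 and 0 to 6537 with a replicate left out. The contrast of 6 with 5 hpf gave 6 higher without the replicate block. That of 9 with 5 hpf gave 627 higher and 1 lower, 327 to 577 and 0 to 1 with a replicate left out, and 22 lower with quantile normalization and 486 with terms by experiment. The causes were not tested. A left-out replicate leaves its experiment with 1 pair, assumed to vary like the other. Scaling moved the median over the pairs from -0.26 to 0.00 (quantile) and -0.07 (pair medians). Of the single genes' values under alternatives, 1041 kept direction and side of the threshold, 27 passed it newly, 26 moved, and 0 reversed.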

Other observations

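The highest flowthrough value of the table at 5 hpf belonged to LOC108710739, which was at 213107, 214494, 85562 and 78469 on beads and at 222716, 331141, 415871 and 540184 in flowthrough. Its total RNA values of 120790, 112180, 231456 and 297232 lay below flowthrough in each pair.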
